A study of Mus musculus with 10 samples.

Results

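Vascular endothelial genes were examined in the RNA-seq data of the mouse cochlea, as a set of 10 genes out of the 54532 genes in the count files. The set was named gene by gene, as Pecam1, Cdh5, Kdr, Flt1, Tek, Tie1, Vwf, Emcn, Plvap and Slc2a1, and each symbol matched 1 gene. The libraries came from 5 NR-treated and 5 non-treated mice of the mtKeima strain, which carries a mitochondrial fluorescent reporter that responds to pH and is of mixed background. NR (nicotinamide riboside, a NAD+ precursor) was given in drinking water at 24 mM, or 7 mg/ml, for 10 months from the age of 2 months, the non-treated mice drank plain water, and all 10 mice were 12 months old. The labels give the mice as female and the methods of the study as male. Xist had at most 8 reads per library, and each of 4 Y-linked genes had at least 444.

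Endothelial cells line every blood vessel. Kdr and Flt1 encode receptors for vascular endothelial growth factor, and Tek encodes the receptor for angiopoietins, with Tie1 as its partner. Cdh5 and Pecam1 hold neighbouring cells together, Emcn and Vwf encode a surface sialomucin and a clotting protein, Plvap forms the diaphragms of fenestrated capillaries, and Slc2a1 encodes a glucose transporter that is abundant in endothelium with a tight barrier. In the cochlea such a barrier surrounds the capillaries of the stria vascularis, the tissue that makes the endolymph, while the bone around the cochlea holds marrow with vessels of other kinds.

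The total count per library lay between 17060379 and 24419230, and the lowest count of any of the 10 genes in any library was 264, so all 10 were among the 18329 genes tested. All 10 genes had reads in every library, Slc2a1 included, a gene that other cell types of the cochlea also use. Libraries differed in the other cell types they held. Markers of stria vascularis and lateral wall summed to 4688 to 7141 CPM (read counts scaled to a common library total) in NR-treated mice and to 5755 to 9728 in non-treated mice, with non-treated mice 3 and 4 at 9351 and 9728, and 9 of these 12 markers were lower in NR-treated mice at an unadjusted p of 0.05 in edgeR. The same 2 mice had the highest sums of hair and supporting cell markers, 1020 and 1005 CPM, against 402 to 608 in the other 8 libraries. In NR-treated mice 3 of these 10 markers were lower, and 4.88% of all genes tested were lower at that threshold. Skeletal muscle markers reached 852 and 642 CPM in NR-treated mice 3 and 5 and at most 76.0 elsewhere, and 6 of these 8 markers were higher in NR-treated mice. Adipocyte markers summed to 69.0 to 202 CPM in NR-treated mice and to 17.2 to 63.6 CPM in non-treated mice, without overlap. Of the 7 adipocyte markers tested, 6 were higher in NR-treated mice, against 4.83% of all genes. The part of these tissues in the levels of the endothelial genes was not tested. Bone markers summed to 458 to 1871 CPM in NR-treated and 252 to 758 CPM in non-treated mice, and markers of central nervous system glia to 405 to 632 and 174 to 658 CPM. Markers of spiral ganglion neurons and Schwann cells summed to 7778 to 9679 and 6692 to 9026 CPM. The comparisons were repeated without non-treated mice 3 and 4 and without NR-treated mice 3 and 5, and those values stand beside a result where they ended a call at an unadjusted p of 0.05 or turned a direction. In bulk RNA from a whole organ, a smaller number of endothelial cells and less RNA per cell cannot be told apart.

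The region around the start of transcription was available in RefSeq (GRCm38.p6) for 6 of the 10 genes, namely Kdr, Flt1, Tek, Tie1, Emcn and Slc2a1. 3 of these are shown, each 300 bases long. Tie1 and Slc2a1 are shown since their levels ran most strongly in opposite directions among the mice, as described below, and Flt1 since it carries the same motif as Tie1 and had nearly the same mean in both groups. Capitals mark matches, on either strand, to AGGAAG, a core of sites for ETS factors (CTTCCT on the other strand), or to ACGTG, the core of a hypoxia response element (CACGT on the other strand). The windows are chr4:118489800-118490099 on the minus strand for Tie1, chr5:147725962-147726261 on the minus strand for Flt1 and chr4:119108495-119108794 on the plus strand for Slc2a1, and each reads 5′ to 3′ in the direction of its gene.
Tie1: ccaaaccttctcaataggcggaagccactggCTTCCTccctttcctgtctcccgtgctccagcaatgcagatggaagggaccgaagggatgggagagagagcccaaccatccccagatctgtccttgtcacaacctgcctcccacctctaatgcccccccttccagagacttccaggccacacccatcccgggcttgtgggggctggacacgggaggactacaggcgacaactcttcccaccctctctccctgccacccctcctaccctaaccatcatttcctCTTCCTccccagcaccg
Flt1: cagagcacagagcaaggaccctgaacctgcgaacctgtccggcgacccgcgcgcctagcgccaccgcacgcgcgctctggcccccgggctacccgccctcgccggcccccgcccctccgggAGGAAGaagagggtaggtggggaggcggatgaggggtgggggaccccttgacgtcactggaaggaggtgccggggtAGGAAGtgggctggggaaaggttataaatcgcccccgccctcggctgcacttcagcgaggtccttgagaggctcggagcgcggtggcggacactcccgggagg
Slc2a1: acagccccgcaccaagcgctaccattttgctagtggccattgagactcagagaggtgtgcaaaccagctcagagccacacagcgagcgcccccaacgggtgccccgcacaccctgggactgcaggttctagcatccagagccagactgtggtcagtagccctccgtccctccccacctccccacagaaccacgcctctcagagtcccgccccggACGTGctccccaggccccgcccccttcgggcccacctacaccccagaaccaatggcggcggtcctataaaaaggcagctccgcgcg
AGGAAG was found in 3 of the 6 promoters, with 2 matches each in Flt1, Tie1 and Emcn, and in 35.4% of all 32851 promoters of this length. The longer ETS motif CCGGAAG, which cannot contain AGGAAG, matched 0 of the 6 promoters and 8.86% of all promoters. The SOX motif ACAAAG (18.7% of all promoters) matched in Tek, and ACGTG (19.6% of all promoters) in Slc2a1, at position -36 from the RefSeq start. The share of G and C ran from 41.0% in Emcn to 70.7% in Flt1, with a median of 52.7% over all promoters. These matches describe the letters of each window and say nothing on binding.

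Expression per length of transcript spanned an order of magnitude among the 10 genes. On the scale of CPM per kilobase of exon, averaged over the 10 mice, Slc2a1 was first at 46.9 ± 5.16 (SD, n = 10), followed by Plvap at 17.8 ± 4.11, Cdh5 at 12.0 ± 0.931 and Pecam1 at 6.57 ± 1.05. Tie1 (5.81), Vwf (4.78), Flt1 (4.23), Emcn (3.94), Tek (3.67) and Kdr (3.46) followed. Only at 2 steps of this order did neighbours not overlap in any mouse, namely between Slc2a1 and Plvap and between Cdh5 and Pecam1. From Pecam1 down to Kdr, the ranges of neighbours overlapped at every step. The spread among the mice was smallest for Cdh5, with a coefficient of variation of 7.74%, and largest for Vwf, with 25.9%.

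The question addressed by the groups was whether 10 months of NR moved the expression of these genes. Of the 10 genes, 3 were higher in NR-treated mice at an unadjusted p of 0.05, namely Plvap, Pecam1 and Tie1, and 0 were lower. Among all genes tested, 4.83% were higher and 4.88% lower at that threshold, or 9.71% in either direction. At an adjusted p of 0.05 (edgeR, Benjamini-Hochberg over 18329 genes), 0 of the 10 passed, as did 0 of all genes, with the lowest adjusted p of the 10 at 0.370 for Plvap. With DESeq2, 1 of the 10, Plvap, was higher at an adjusted p of 0.05, where 0.265% of all genes were. The log2 fold change was above 0 in 8 of the 10 genes, against 47.1% of all genes, and its median was 0.061, against -0.0092 over all genes. The sum of the 10 genes lay between 512 and 540 CPM in NR-treated mice and between 476 and 546 CPM in non-treated mice, so the summed level overlapped between the groups. Slc2a1, the most counted of the 10, had a mean of 156 CPM in NR-treated and 173 CPM in non-treated mice. The mean log2 CPM of the 10 genes, in which each gene weighs alike, was 5.37 to 5.50 in NR-treated and 5.13 to 5.46 in non-treated mice.

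**Figure D1:**
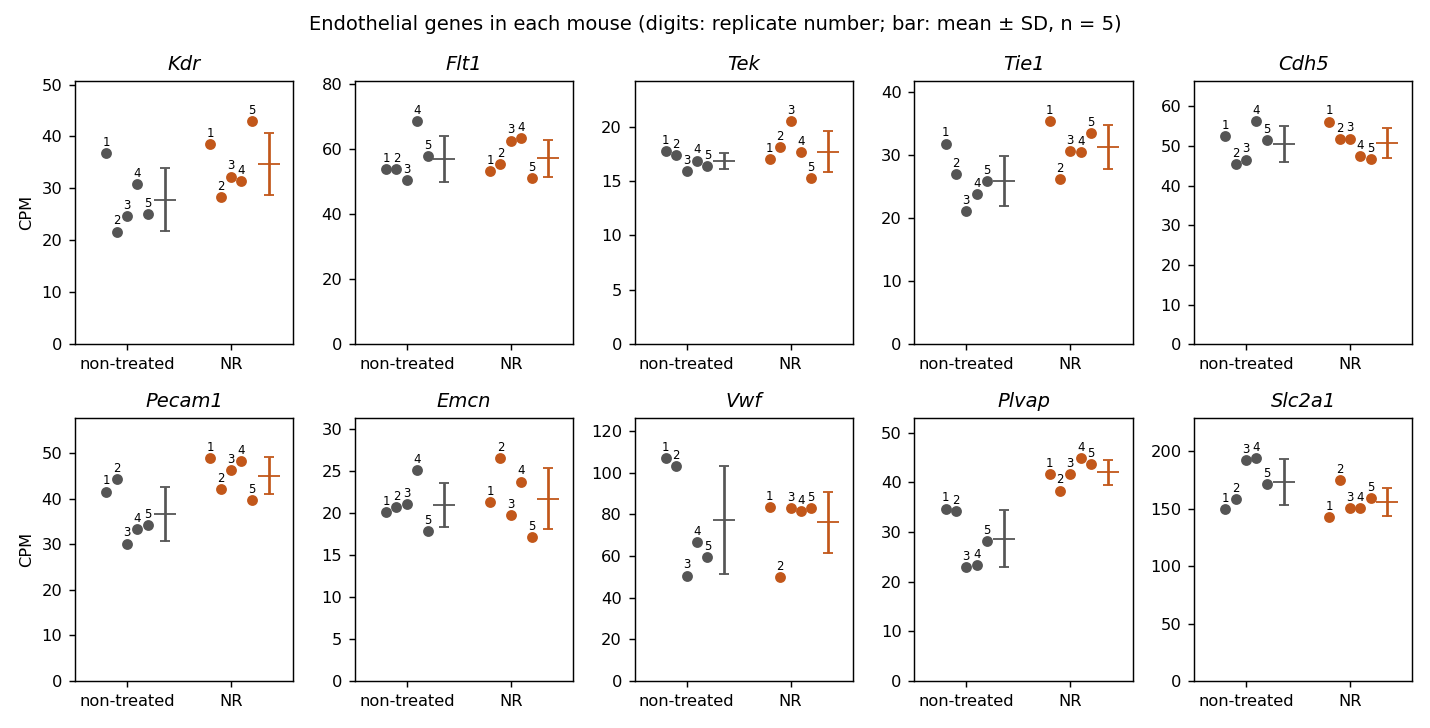
Level of each of the 10 endothelial genes in each mouse, in CPM (vertical axes start at 0 and differ in scale), with non-treated mice in grey, NR-treated mice in orange, the replicate number at each point and bars for the mean ± SD (n = 5). Plvap is the panel in which the groups do not overlap, with NR-treated mice at 38.3 to 44.9 CPM and non-treated mice at 22.9 to 34.7.

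Among the receptors for vascular endothelial growth factor, Kdr (ENSMUSG00000062960, chromosome 5, 75932827 to 75978458, minus strand) is the one that carries most of the growth signal. Its level was 38.6, 28.4, 32.3, 31.4 and 42.9 CPM in NR-treated mice 1 to 5 and 36.8, 21.7, 24.6, 30.8 and 25.0 CPM in non-treated mice 1 to 5. The groups overlapped, and NR-treated mice 1 and 5 were the highest of the 10. Kdr had a log2 fold change of 0.32 ± 0.16 (SE), with a 95% confidence interval from -0.021 to 0.66 (edgeR, unadjusted p = 0.0635, adjusted p = 0.540).

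Flt1 (ENSMUSG00000029648, chromosome 5, 147561604 to 147726011, minus strand) also binds vascular endothelial growth factor, with little signalling, and yields a soluble form that traps it. NR-treated mice 1 to 5 had 53.2, 55.4, 62.7, 63.5 and 51.0 CPM, and non-treated mice 1 to 5 had 54.0, 53.8, 50.6, 68.6 and 57.9 CPM. The lowest and the highest level among the 10 mice were both in the non-treated group. Its log2 fold change of 0.0056 had a 95% confidence interval from -0.20 to 0.21 (edgeR, adjusted p = 0.990). The reads of the full-length and the soluble form were counted together.

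Tek (ENSMUSG00000006386, chromosome 4, 94739289 to 94874976, plus strand) had 17.01, 18.1, 20.5, 17.7 and 15.3 CPM in NR-treated mice 1 to 5 and 17.8, 17.4, 15.9, 16.9 and 16.3 CPM in non-treated mice 1 to 5. The non-treated mice lay within the range of the NR-treated mice. Its log2 fold change was 0.073, with a 95% confidence interval from -0.11 to 0.26 (edgeR, adjusted p = 0.785).

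Tie1 (ENSMUSG00000033191, chromosome 4, 118471191 to 118490061, minus strand), the partner of Tek that binds no angiopoietin on its own, stood at 35.4, 26.2, 30.6, 30.5 and 33.5 CPM in NR-treated mice 1 to 5. In non-treated mice 1 to 5 it stood at 31.8, 26.9, 21.2, 23.9 and 25.9 CPM. NR-treated mice 2, 3 and 4 were within the non-treated range, and non-treated mouse 3 was the lowest of all. Between the groups, the log2 fold change was 0.27 ± 0.11 (SE; 95% confidence interval 0.020 to 0.52; edgeR, unadjusted p = 0.0369, adjusted p = 0.488), and the exact permutation test over the 252 labelings gave p = 0.0714, two-sided. Without non-treated mice 3 and 4, the log2 fold change of Tie1 was 0.15 (edgeR, unadjusted p = 0.193), and without NR-treated mice 3 and 5 it was 0.26 (unadjusted p = 0.0993).

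Cdh5 and Pecam1 are genes of the cell junction, and the difference between them was not tested. Cdh5 (ENSMUSG00000031871, chromosome 8, 104101625 to 104144511, plus strand) encodes VE-cadherin, the cadherin of endothelial adherens junctions. It had 56.1, 51.7, 51.8, 47.4 and 46.7 CPM in NR-treated mice 1 to 5 and 52.5, 45.4, 46.5, 56.2 and 51.4 CPM in non-treated mice 1 to 5. Every NR-treated mouse lay within the non-treated range. Its estimate of 0.0088 on the log2 scale had a 95% confidence interval from -0.15 to 0.17 (edgeR, adjusted p = 0.980), the narrowest of the 10 genes.

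Pecam1 (ENSMUSG00000020717, chromosome 11, 106654217 to 106750628, minus strand) encodes an adhesion molecule that platelets and leukocytes also carry. Its level was 49.0, 42.2, 46.3, 48.3 and 39.6 CPM in NR-treated mice 1 to 5 and 41.6, 44.4, 30.2, 33.3 and 34.2 CPM in non-treated mice 1 to 5. Non-treated mice 1 and 2 were within the NR-treated range, and the other 3 were below it. This gave a log2 fold change of 0.30 ± 0.11 (SE; 95% confidence interval 0.055 to 0.54; edgeR, unadjusted p = 0.0204, adjusted p = 0.464), and the exact permutation test gave p = 0.0476, two-sided. Without non-treated mice 3 and 4 it was 0.18 (edgeR, unadjusted p = 0.123), and without NR-treated mice 3 and 5 it was 0.35 (unadjusted p = 0.0240). Leukocyte and marrow markers summed to 1258 to 4194 CPM in NR-treated mice and to 1310 to 5201 CPM in non-treated mice. Of these 12 markers, 0 were higher (4.83% of all genes) and 1 was lower (4.88%) at an unadjusted p of 0.05. Their part in the level of Pecam1 was not tested.

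Emcn (ENSMUSG00000054690, chromosome 3, 137341067 to 137432185, plus strand), a sialomucin of capillary and venous endothelium, had 21.3, 26.5, 19.7, 23.7 and 17.1 CPM in NR-treated mice 1 to 5 and 20.1, 20.7, 21.0, 25.1 and 17.8 CPM in non-treated mice 1 to 5. Both the lowest and the highest of the 10 mice were NR-treated. Emcn had a log2 fold change of 0.049, with a 95% confidence interval from -0.23 to 0.33 (edgeR, adjusted p = 0.909).

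Vwf (ENSMUSG00000001930, chromosome 6, 125546774 to 125686679, plus strand) encodes von Willebrand factor, which endothelial cells and megakaryocytes both make. It had 83.6, 50.0, 83.1, 81.7 and 82.9 CPM in NR-treated mice 1 to 5 and 107, 103, 50.6, 66.8 and 59.4 CPM in non-treated mice 1 to 5. NR-treated mouse 2 stood below the other 4 of its group, which lay close together, and non-treated mice 1 and 2 were the highest of all. For Vwf the log2 fold change was -0.022, with a wide 95% confidence interval from -0.51 to 0.47 (edgeR, adjusted p = 0.983). The sum of 10 megakaryocyte and platelet markers was 816 and 735 CPM in non-treated mice 1 and 2, the same mice in which Vwf was highest. That sum was 132 CPM in non-treated mouse 3 and 179 CPM in NR-treated mouse 2, where Vwf was lowest. All 10 markers had reads in every library, and 0 of them were higher or lower in NR-treated mice at an unadjusted p of 0.05 (4.83% and 4.88% of all genes). The part of megakaryocyte RNA in the level of Vwf was not tested.

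Plvap (ENSMUSG00000034845, chromosome 8, 71497765 to 71511752, minus strand) encodes the protein of the diaphragms that span fenestrae and caveolae, and it is low in endothelium with a tight barrier. Its level was 41.6, 38.3, 41.6, 44.9 and 43.6 CPM in NR-treated mice 1 to 5 and 34.7, 34.3, 22.9, 23.3 and 28.1 CPM in non-treated mice 1 to 5. All 5 NR-treated mice were above all 5 non-treated mice, as in 0.769% of all genes tested, and the NR-treated mice were also closer to each other, at 42.0 ± 2.49 CPM against 28.7 ± 5.70 (SD, n = 5 each). The log2 fold change was 0.55 ± 0.12 (SE; 95% confidence interval 0.28 to 0.82), a 1.47-fold higher level.

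For the difference in Plvap, edgeR gave an unadjusted p = 0.000874 and, after adjustment over all genes, an adjusted p = 0.370, and DESeq2 gave an adjusted p = 0.0131. The exact permutation test gave p = 0.00794, two-sided, the smallest that 5 against 5 mice allow. Without non-treated mice 3 and 4, the mice with the lowest Plvap, the log2 fold change was 0.38 (edgeR, unadjusted p = 0.00152), and without NR-treated mice 3 and 5 it was 0.55 (unadjusted p = 0.00598). Gtpbp3 overlaps Plvap on the opposite strand with 0 exonic bases in common, and its log2 fold change was 0.021 (95% confidence interval -0.11 to 0.15).

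Slc2a1 (ENSMUSG00000028645, chromosome 4, 119108711 to 119137983, plus strand) encodes GLUT1, the glucose transporter of barrier endothelium, red cells and other cell types. It had 143, 175, 150.3, 150.6 and 159 CPM in NR-treated mice 1 to 5 and 149.8, 158, 192, 194 and 171 CPM in non-treated mice 1 to 5. Non-treated mice 3 and 4 were the highest, NR-treated mouse 1 was the lowest, and the groups overlapped between these. The log2 fold change was -0.15 ± 0.08 (SE; 95% confidence interval -0.34 to 0.028; edgeR, unadjusted p = 0.0896, adjusted p = 0.568), and it was -0.034 without non-treated mice 3 and 4. Erythroid markers summed to 7509 to 13242 CPM in NR-treated mice and to 4206 to 18253 CPM in non-treated mice. Of these, 0 of 10 were higher or lower at an unadjusted p of 0.05 (4.83% and 4.88% of all genes). Their part in the level of Slc2a1 was not tested.

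**Figure D2:**
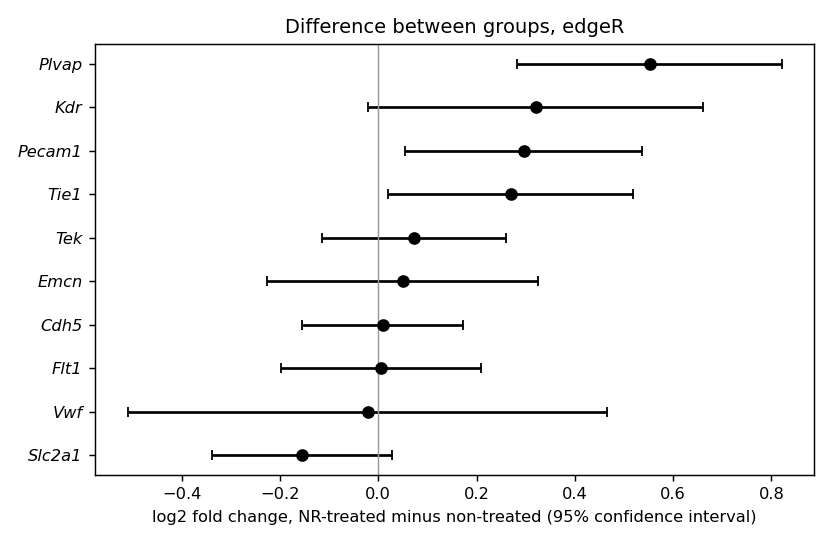
Log2 fold change of each of the 10 genes (horizontal axis, NR-treated minus non-treated; points are edgeR estimates and bars are 95% confidence intervals), ordered by size. The intervals of Plvap (0.28 to 0.82), Pecam1 (0.055 to 0.54) and Tie1 (0.020 to 0.52) lie above 0 before adjustment over all genes, and the other 7 include 0.

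Ratios of pairs of these genes were taken within each library, which removes the scaling between libraries. The log2 ratio of Plvap to Slc2a1, a gene that other cell types also use, was -1.78, -2.19, -1.85, -1.75 and -1.87 in NR-treated mice 1 to 5. In non-treated mice 1 to 5 it was -2.11, -2.21, -3.07, -3.06 and -2.60. In 4 of 5 NR-treated mice the ratio was above that of every non-treated mouse, and NR-treated mouse 2 lay within the non-treated range. The group means differed by 0.72 (exact permutation test, two-sided p = 0.0159, adjusted over the 4 ratios 0.0635), and by 0.42 without non-treated mice 3 and 4. The log2 ratio of Flt1 to Kdr was 0.32 lower in the NR-treated mice by the means, at 0.73 ± 0.35 against 1.05 ± 0.30 (SD, n = 5; exact permutation test p = 0.159, adjusted 0.254). Tek to Tie1 stood at -0.82 ± 0.27 against -0.61 ± 0.16 (p = 0.190, adjusted 0.254, exact permutation test), and Vwf to Cdh5 at 0.56 ± 0.36 against 0.56 ± 0.50 (p = 0.984, exact permutation test). The group difference for Vwf to Cdh5 was 0.0069. It was -0.24 without non-treated mice 3 and 4 and -0.12 without NR-treated mice 3 and 5. No ratio passed the adjusted threshold.

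Within the set, the mice did not order the genes alike. Cdh5, the gene most restricted to endothelium, was compared with each of the other 9 over the 10 mice on log2 CPM. Pearson's r with Cdh5 ran from -0.11 for Plvap to 0.43 for Flt1 and Spearman's rho from -0.20 for Slc2a1 to 0.48 for Kdr and Flt1, and 0 of the 9 passed (permutation test, adjusted p = 0.965 for every r). The r of Flt1 was 0.24 without the 2 mice farthest from the median of Cdh5. The genes most like Cdh5 by Pearson's r, among 12249 genes of sufficient level, were Zmym5 (0.90), Mospd2 (0.87), Serpinb9, Senp3, Homer3, Washc4, Zfp426, Zfp950, Tspan5 and Caprin1 (0.81), and none of the other 9 endothelial genes was among them. These were picked as the highest of many values over 10 mice.

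All 45 pairs of the 10 genes were then compared, a step added after the values had been seen. By Pearson's r, 6 pairs passed an adjusted p of 0.05, all among Pecam1, Tie1, Plvap and Slc2a1. Slc2a1 ran opposite to the other genes. Its r was -0.91 with Tie1 (permutation p = 0.000300, adjusted 0.0135), -0.88 with Pecam1 (permutation p = 0.00121, adjusted 0.0139) and -0.85 with Plvap (permutation p = 0.00322, adjusted 0.0290). Pecam1, Plvap and Tie1 ran together, with r of 0.90 for Pecam1 and Plvap (permutation p = 0.00109, adjusted 0.0139), 0.86 for Tie1 and Plvap (permutation p = 0.00124, adjusted 0.0139) and 0.80 for Pecam1 and Tie1 (permutation p = 0.00639, adjusted 0.0479).

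Spearman's rho for these pairs was -0.85, -0.79 and -0.62 with Slc2a1 and 0.76, 0.79 and 0.68 for the others, and with rho 0 of the 45 pairs passed (lowest adjusted p 0.0780, permutation test). After the group means were subtracted, r was -0.88, -0.85 and -0.88 for Slc2a1 with Tie1, Pecam1 and Plvap and 0.82, 0.79 and 0.65 for the others, and 0 pairs passed (lowest adjusted p 0.0734, permutation test). Without the 2 mice farthest from the median of the first gene, r was -0.84 for Tie1 and Slc2a1, -0.72 for Pecam1 and Slc2a1, -0.52 for Plvap and Slc2a1, 0.73 for Pecam1 and Plvap, 0.80 for Tie1 and Plvap and 0.49 for Pecam1 and Tie1. Non-treated mice 3 and 4, at the end of these relations with high Slc2a1, were the libraries with the most RNA of stria vascularis, lateral wall and hair cell markers, and the part of tissue composition was not tested.

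**Figure D3:**
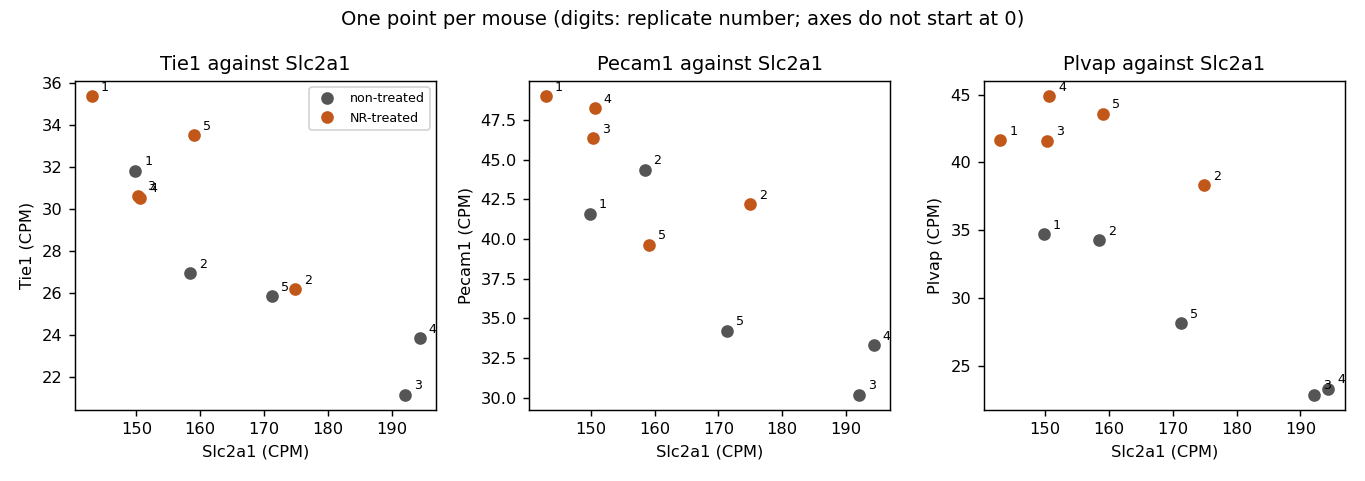
CPM of Tie1, Pecam1 and Plvap (vertical axes) against CPM of Slc2a1 (horizontal axes) in the 10 mice, 1 point per mouse with its replicate number, non-treated in grey and NR-treated in orange, with axes that do not start at 0. All 3 genes are lower where Slc2a1 is higher (r -0.91, -0.88 and -0.85 on log2 CPM), with non-treated mice 3 and 4 at the right end.

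Other genes were taken from 7 lists of endothelial signalling and identity and from 2 lists, hypoxia response targets and glucose transporters, that are not particular to endothelium. Besides the set they held 103 genes, of which 101 passed the filter on low counts. Of these, 14 were higher (13.9%, against 4.83% of all genes) and 2 lower (1.98%, against 4.88%) at an unadjusted p of 0.05, and 0 passed an adjusted p of 0.05 in edgeR (lowest 0.320). At an adjusted p of 0.05, DESeq2 called 2 higher, Egfl7 and Mmrn2 (0.265% of all genes), and 1 lower, Adm (0.255%). The median log2 fold change of the 101 genes was 0.063. The 7 endothelial lists held 80 of the tested genes, with 13 higher and 1 lower at an unadjusted p of 0.05, and the other 2 lists held 21, with 1 higher and 1 lower.

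Among the ligands of these receptors, 8 VEGF and angiopoietin genes, 0 were higher and 0 lower at an unadjusted p of 0.05 (4.83% and 4.88% of all genes). Their log2 fold changes were above 0 in 4 and below 0 in 4, from -0.11 to 0.27. Vegfa, the main ligand of Kdr, had 100.04 ± 8.78 CPM against 94.8 ± 11.4 in non-treated mice (SD, n = 5; log2 fold change 0.077, 95% confidence interval -0.12 to 0.27). Vegfa was at 0.19 without non-treated mice 3 and 4 (edgeR, unadjusted p = 0.0444). Angpt2, an antagonist of Tek in most settings, had 21.2 ± 1.93 against 17.6 ± 3.82 CPM (log2 fold change 0.27, 95% confidence interval -0.042 to 0.58). Among 14 other receptors and partners, 12 log2 fold changes were above 0 (47.1% of all genes), with 1 gene higher at an unadjusted p of 0.05 (4.83% of all genes). It was S1pr1, a receptor for sphingosine-1-phosphate that stabilises junctions (log2 fold change 0.19, edgeR adjusted p = 0.476). Nrp2, a co-receptor for VEGF, had 98.6 ± 14.0 against 115 ± 12.5 CPM (log2 fold change -0.22, adjusted p = 0.529).

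Of 7 endothelial Notch genes, 2 were higher at an unadjusted p of 0.05, against 4.83% of all genes, and 0 were lower. Dll4, the Notch ligand of arterial and tip cells, had 7.34 ± 0.959 CPM against 5.30 ± 0.792 (log2 fold change 0.47; edgeR, unadjusted p = 0.00693, adjusted p = 0.423), and Hey1, a Notch target, had 29.6 ± 2.91 against 25.3 ± 2.38 (log2 fold change 0.22, edgeR, unadjusted p = 0.0283). Without NR-treated mice 3 and 5, Hey1 was at 0.19 (edgeR, unadjusted p = 0.120). Notch1 itself had a log2 fold change of -0.17, with a 95% confidence interval from -0.69 to 0.34, and of 0.31 without non-treated mice 3 and 4 (edgeR, unadjusted p = 0.0341). Of 14 endothelial transcription factors, 4 were higher (4.83% of all genes) and 0 lower (4.88%), with a list median of 0.055. Their log2 fold changes were above 0 in 9 (47.1% of all genes) and below 0 in 5, from -0.43 to 0.65. Without non-treated mice 3 and 4, 3 were higher and 2 lower (767 and 1042 of all 18671 genes tested). Without NR-treated mice 3 and 5, 5 were higher and 0 lower (460 and 383 of all 18732). Epas1, which encodes HIF-2α, had 247, 190.0, 198, 219 and 200.2 CPM in NR-treated mice and 179, 182, 176, 166 and 173 CPM in non-treated mice. The groups did not overlap, with NR-treated mice above, as in 0.769% of all genes tested (log2 fold change 0.27; edgeR, unadjusted p = 0.00302, adjusted p = 0.408). Sox18, Erg and Sox7, which specify endothelial identity, had log2 fold changes of 0.52, 0.33 and 0.56 (edgeR, adjusted p = 0.423, 0.434 and 0.504). Sox18 was at 0.38 and Sox7 at 0.44 without non-treated mice 3 and 4 (edgeR, unadjusted p = 0.0513 and 0.139).

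Among 20 other junction and surface genes, 18 log2 fold changes were above 0 (47.1% of all genes), with a median of 0.17, and 6 genes were higher (4.83% of all genes) and 0 lower (4.88%) at an unadjusted p of 0.05. Without non-treated mice 3 and 4, 4 were higher (767 of all 18671 genes tested). Without NR-treated mice 3 and 5, 4 were also higher (460 of all 18732). Egfl7, a matrix protein secreted by endothelium, had 56.9, 53.1, 51.4, 50.7 and 50.5 CPM in NR-treated mice 1 to 5 and 47.2, 44.2, 42.2, 40.6 and 41.5 CPM in non-treated mice 1 to 5. Mmrn2, an endothelial matrix protein, had 22.2, 17.7, 20.5, 20.0 and 18.5 CPM against 15.8, 15.2, 13.2, 16.4 and 13.3 CPM. In both genes every NR-treated mouse was above every non-treated mouse, as in 0.769% of all genes tested. The log2 fold changes were 0.28 and 0.42 (adjusted p = 0.320 and 0.370 in edgeR, 0.00719 and 0.0126 in DESeq2). Clec14a and Mcam, endothelial surface proteins of which Mcam is also made by pericytes and smooth muscle, had log2 fold changes of 0.54 and 0.44 (adjusted p = 0.451 and 0.461 in edgeR). Clec14a was at 0.40 without non-treated mice 3 and 4 (edgeR, unadjusted p = 0.0682), and without NR-treated mice 3 and 5 Clec14a was at 0.51 and Mcam at 0.31 (edgeR, unadjusted p = 0.0526 and 0.109).

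Of 12 genes for the transporters and junctions of barrier endothelium, 1 was lower at an unadjusted p of 0.05 (4.88% of all genes) and 0 were higher. The list median was -0.18, and 2 of the 12 log2 fold changes were above 0, against 47.1% of all genes. Without non-treated mice 3 and 4, 4 of the 12 were lower (1042 of all 18671 genes tested). Without NR-treated mice 3 and 5, 2 were lower (383 of all 18732). Slc7a5, the transporter of large neutral amino acids, had 107, 124, 108, 109.7 and 138 CPM in NR-treated mice and 162, 147, 124, 116 and 158 CPM in non-treated mice (log2 fold change -0.27; edgeR, unadjusted p = 0.0286, adjusted p = 0.476). The groups overlapped in Slc7a5. Slco1c1, a transporter of thyroid hormone, had 105 ± 28.9 against 135 ± 26.9 CPM (log2 fold change -0.36; edgeR, adjusted p = 0.542), and Ocln and Tjp1, which encode tight junction proteins of epithelium as well, had -0.35 and -0.20 (edgeR, adjusted p = 0.555 and 0.616). With non-treated mice 3 and 4 left out, Slco1c1 was at -0.15, Ocln at -0.051 and Tjp1 at 0.0012, while Slc7a5 was at -0.40 (edgeR, unadjusted p = 0.00119). Erythroid markers summed to 18253, 12201 and 11489 CPM in non-treated mice 1, 2 and 5, where Slc7a5 was highest. Their sum was 7675 and 4206 CPM in non-treated mice 3 and 4, and 7509 to 13242 CPM in NR-treated mice. The part of erythroid RNA in the levels of the barrier genes was not tested. Pericyte and smooth muscle markers, from cells that wrap the same vessels, summed to 388 to 469 CPM in NR-treated and 423 to 482 CPM in non-treated mice. Of these 12 markers, 0 were higher (4.83% of all genes) and 1 was lower (4.88%) at an unadjusted p of 0.05.

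In the list of hypoxia response targets, which holds Slc2a1 and Vegfa, 1 of 14 genes was lower at an unadjusted p of 0.05 (4.88% of all genes). In that list 0 were higher (4.83% of all genes), with a median of 0.010. The gene was Adm, which encodes adrenomedullin, a vasodilator peptide. It had 9.78, 9.84, 8.91, 13.1 and 7.93 CPM in NR-treated mice 1 to 5 and 14.2, 14.0, 16.2, 15.3 and 15.9 CPM in non-treated mice 1 to 5. All 5 NR-treated mice were below all 5 non-treated mice, as in 0.878% of all genes tested (log2 fold change -0.61, 95% confidence interval -0.89 to -0.32; adjusted p = 0.370 in edgeR and 0.00564 in DESeq2). Aldoa, the glycolytic aldolase and the most counted gene of the list, had a log2 fold change of 0.13 (edgeR, adjusted p = 0.552), and Pdk1 had -0.30 (edgeR, adjusted p = 0.552).

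Of 10 glucose transporters tested, Slc2a1 included, 1 was higher at an unadjusted p of 0.05 (4.83% of all genes). It was Slc2a4, which encodes the insulin-sensitive GLUT4 of fat and muscle, with 37.1 ± 7.16 CPM against 27.4 ± 5.90 (log2 fold change 0.43; edgeR, unadjusted p = 0.0278, adjusted p = 0.476). Adipocyte markers summed to 69.0 to 202 CPM in NR-treated mice and to 17.2 to 63.6 CPM in non-treated mice, and skeletal muscle markers to 12.3 to 852 and to 9.98 to 75.1 CPM. Without NR-treated mice 3 and 5, the log2 fold change of Slc2a4 was 0.32 (edgeR, unadjusted p = 0.132). The part of these tissues in the level of Slc2a4 was not tested. In the list of lymphatic and sinusoidal endothelium, 0 of 5 tested genes were higher or lower at an unadjusted p of 0.05 (4.83% and 4.88% of all genes). Prox1 was at -0.40 and Lyve1 at 0.37 on the log2 scale, and Ccl21a had 0 reads in all 10 libraries.

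**Figure D4:**
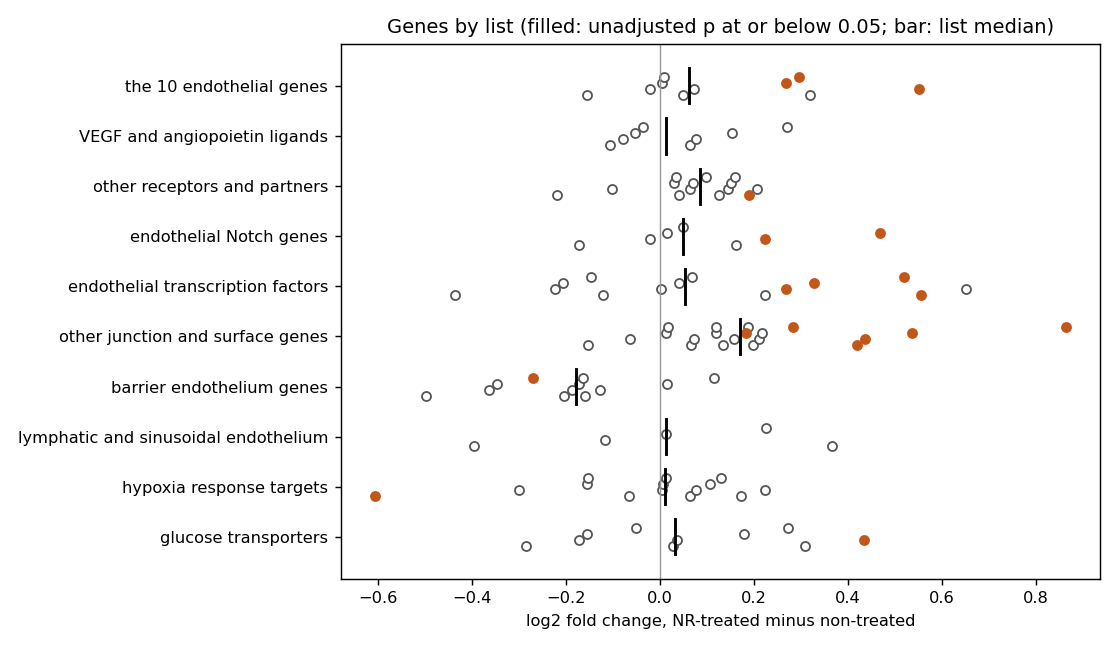
Log2 fold change (horizontal axis, NR-treated minus non-treated) of each tested gene in 10 lists, 1 point per gene, filled where the unadjusted edgeR p is at or below 0.05, with a bar at the list median. The other junction and surface genes have the highest median (0.17) and the barrier endothelium genes the lowest (-0.18), and 0 genes pass an adjusted p of 0.05.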

How the data were processed

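RNA of 10 whole cochleae was sequenced, with 1 library per mouse. The authors deposited raw read counts per gene, 1 file per mouse, which were not normalized. The processing notes of the submitters name fastp, STAR version 2.6.1d, featureCounts version 1.5.0, DESeq2 version 1.26.0 and the build mm10. The annotation release is not given in the sources used here. Coordinates of the 10 genes in the files were identical to those of the reference annotation. Groups came from the labels, which name no difference between the samples other than the group and the replicate number. Differences that the labels do not record are not known. No 2 libraries agreed within sampling noise. Non-treated mouse 2 stood furthest from the rest. The chi-square per degree of freedom over the tested genes was 72.8 to 118 for its pairs and 10.8 to 55.5 for all other pairs.

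Counts were tested with the quasi-likelihood test of edgeR version 4.0.16 (R version 4.3.3) after filterByExpr and TMM scaling, NR-treated minus non-treated, with no covariate and with Benjamini-Hochberg adjustment over 18329 genes. CPM use the TMM-scaled library sizes. Ratios are log2 of counts plus 0.5 and were tested with exact permutation tests. Correlations used log2 CPM with a prior count of 2 and 100000 permutations. The alternatives were DESeq2 version 1.42.0, its size factors, all 33224 genes with a read, a block for the replicate number, a robust dispersion, and leaving out samples. The fit was tested on simulated data. The members, the lists and the tests were chosen with earlier results of these data known. The genes named are the 10 members, up to 4 genes per list with the lowest unadjusted p, the most counted gene of a list, and the 10 genes most like Cdh5. At these depths the lowest count of the 10 genes, 264, limits the precision of single values, and the spread between mice sets the error of each comparison.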

Additional observations from a re-analysis of the deposited data

Results flagged for a closer look

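Of 28 groups of 5 values examined, 2 held a mouse far from the other 4 of its group, and chance alone marks about 1 in 20 such groups. Both were NR-treated mouse 2. Its Vwf level was 50.0 CPM, with the nearest other NR-treated mouse at 81.7 CPM, a gap of 0.943 of the range of the group (critical value 0.71). Its log2 ratio of Plvap to Slc2a1 was -2.19, with the nearest other NR-treated mouse at -1.87, a gap of 0.728 of the range.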

How the results depend on the processing

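Plvap was higher at an unadjusted p of 0.05 in edgeR or DESeq2 under all 17 alternatives, with a log2 fold change of 0.49 to 0.64 when 1 mouse was left out (edgeR adjusted p 0.139 to 0.751), Pecam1 under 16 of 17 and Tie1 under 10 of 17, its call being lost without NR-treated mouse 1 or 5 or non-treated mouse 3, 4 or 5, and without either pair of mice below. DESeq2 called 1 of the 10 genes and 3 of the other list genes at an adjusted p of 0.05, where edgeR called 0. Of all genes, DESeq2 called 0.265% higher and 0.255% lower. Scaling by DESeq2 size factors changed no direction among the 10 genes. Replicate numbers did not pair the mice (correlations of same-numbered mice from -0.22 to 0.17). The fit with the replicate block gave 4 of the 10 genes higher (879 of all 18329 genes), and turned the sign of Vwf (0.021) and Mmrn1 (0.13). For the ratios, an exact sign-flip test of the numbered pairs cannot go below p = 0.0625.

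Without non-treated mice 3 and 4, an alternative chosen after seeing the data, 1 of the 10 genes was higher. Of the other list genes, 16 were higher and 7 lower. Of all 18671 genes tested in that fit, 767 were higher and 1042 lower. There the group difference in the log2 ratio of Vwf to Cdh5 was -0.24. Signs of the log2 fold change turned for Pgf (-0.0386), Tgfbr2 (0.15), Notch1 (0.31), Vcam1 (-0.11), Tjp1 (0.0012) and Slc2a10 (0.074). Without NR-treated mice 3 and 5, also chosen after, the group difference for Vwf to Cdh5 was -0.12 and the log2 fold change of Vcam1 was -0.15. In that fit 2 of the 10 genes were higher. Of the other list genes, 11 were higher and 3 lower (460 and 383 of all 18732 genes tested). Without the 2 mice farthest from the median of Cdh5, r with Cdh5 turned for Pecam1 (-0.173), Kdr (-0.151), Tie1 (-0.260) and Slc2a1 (0.234), and r of Slc2a1 was 0.0279 without TMM and 0.00859 on residuals. The cause was not tested.

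Leaving out 1 mouse at a time gave a group difference in the log2 ratio of Plvap to Slc2a1 of 0.61 to 0.85. It passed the adjusted threshold without non-treated mouse 1 (exact permutation test, adjusted p = 0.0317). For Vwf to Cdh5 the difference ran from -0.10 to 0.16. The 10 genes held 2 to 4 higher and 0 to 1 lower, the 1 being Slc2a1 without NR-treated mouse 2 or non-treated mouse 1. Among all genes tested, 669 to 1414 were higher and 484 to 1059 lower in these fits. The other list genes held 10 to 21 higher and 1 to 8 lower. Without NR-treated mouse 2, 8 were lower (1026 of all 18586 genes tested), and 1414 of all genes were higher. Without non-treated mouse 4, 5 were lower (763 of 18508), and without non-treated mouse 2, 4 were (932 of 18526). Only 1 was lower without NR-treated mouse 3 (484 of 18495, with 669 higher) or non-treated mouse 1 (1059 of 18535). Tie1 had its largest unadjusted edgeR p, 0.0747, without NR-treated mouse 1. The r with Cdh5 ranged from -0.233 to 0.322 for Pecam1, -0.0868 to 0.434 for Tie1, -0.314 to 0.167 for Vwf, -0.419 to 0.213 for Plvap and -0.410 to 0.249 for Slc2a1. Log2 fold changes spanned 0 for Cdh5 (-0.021 to 0.055), Flt1 (-0.025 to 0.085), Vwf (-0.13 to 0.13), Emcn (-0.025 to 0.13), Tgfbr2 (-0.16 to 0.038), Notch1 (-0.30 to 0.044), Vcam1 (-0.060 to 0.11) and Mmrn1 (-0.36 to 0.29).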
